A study of Rattus norvegicus with 2 samples.

Results

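The urea cycle and ammonia handling genes of the rat liver were followed across the 2 arrays of a partial hepatectomy (PH) study. The 10 genes, Cps1, Otc, Ass1, Asl, Arg1, Nags, Slc25a15, Slc25a13, Glud1 and Gls2, were taken by their symbols in the platform's annotation, out of 14217 genes with a named probe set. A probe set is the group of short probes that measures 1 transcript on an Affymetrix array. The 10 genes had 19 probe sets, and all 19 are accounted for here. Remnant liver was taken at 24 h after 2/3PH, in which the larger part of the liver is removed, or at 24 h after 1/3PH, in which the smaller part is removed. Per the series' design text, each array carried RNA combined from 3 rats of 1 group, and the comparison was meant to find transcripts that differ between a remnant with strong DNA replication (2/3PH) and one with little (1/3PH). The sources used here give no strain, sex or age of the rats, and no unoperated or sham-operated liver was among the samples. With 1 array per group no difference has a replicate check, no test was possible and no p-value is given. Higher and lower always describe 2/3PH against 1/3PH.

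The urea cycle is how the liver turns toxic ammonia into urea. Periportal hepatocytes release ammonia from glutamine and glutamate, fix it as carbamoyl phosphate in the mitochondrion and pass the nitrogen through ornithine, citrulline, argininosuccinate and arginine, whereas a thin layer of pericentral hepatocytes captures what escapes as glutamine. The same carbamoyl phosphate, aspartate and ornithine chemistry also feeds pyrimidine and polyamine synthesis, which dividing cells use. In the remnant after hepatectomy fewer hepatocytes carry the nitrogen load of the whole body.

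Upstream sequence is shown for 3 of the genes, because they mark the range of the differences described below: Cps1 and Otc catalyse consecutive mitochondrial steps and differed from each other, and Asl lay at the other end from Otc. The sequences come from RefSeq, build GRCr8, and run 5′ to 3′ toward the annotated transcription start. Those of Cps1 (chr9:76063613-76063862, plus strand) and Otc (chrX:15202474-15202723, minus strand) are the 250 bases before the start. That of Asl (chr12:32295658-32295778, plus strand) is shortened to the 121 bases that precede its outermost annotated transcript. Capitals mark matches, on either strand, to any of the 6 motifs searched.
Cps1: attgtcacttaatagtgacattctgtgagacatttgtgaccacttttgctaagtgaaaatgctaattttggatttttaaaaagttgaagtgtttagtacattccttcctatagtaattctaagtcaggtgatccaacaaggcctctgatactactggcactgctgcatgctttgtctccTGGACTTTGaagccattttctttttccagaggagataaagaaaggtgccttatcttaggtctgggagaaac
Otc: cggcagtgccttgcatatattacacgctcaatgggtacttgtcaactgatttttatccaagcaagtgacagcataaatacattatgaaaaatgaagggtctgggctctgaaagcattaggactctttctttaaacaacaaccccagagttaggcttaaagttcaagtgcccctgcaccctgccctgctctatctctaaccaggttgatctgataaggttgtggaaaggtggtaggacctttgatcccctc
Asl: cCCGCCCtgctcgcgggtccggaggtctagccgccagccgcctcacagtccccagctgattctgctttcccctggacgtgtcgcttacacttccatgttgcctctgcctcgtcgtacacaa
The motifs were an HNF4 motif (CAAAGTCCA), a C/EBP motif (TTGCNNAA), the CCAAT box (CCAAT), the GC box (GGGCGG), the cAMP response element (TGACGTCA) and the TATA box (TATAAA). They were searched in windows of 250 bases before to 50 after the start. These were found for 9 of the 10 genes, all but Arg1, with a window for each of 2 starts of Gls2. The matches in Gls2 all lie in the same window. The Cps1 window held the HNF4 motif on the minus strand, from 71 to 63 bases before the start, and 0.391% of all 33469 promoter windows hold these letters. The Otc window held none of the 6. A GC box was found in Asl, Nags, Slc25a13, Glud1 and Gls2, against 33.1% of all windows. A CCAAT box was found in Slc25a15, Slc25a13 and Gls2, against 37.5% of all windows, and a TATA box in Ass1, against 14.2%. The C/EBP motif, present in 10.6% of all windows, and the cAMP response element, present in 1.83%, were in none of the genes' windows. Arg1 was not searched for either. A match describes the letters in the window and was not tested as a binding site.

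Most of the urea cycle genes differed little between the arrays, and those that differed did not move one way. Otc was 2.21-fold lower after 2/3PH and Gls2 1.60-fold lower, whereas Asl was 1.85-fold higher. The other 7 genes, Cps1 and Arg1 among them, differed by less than 1.5-fold by their brightest probe sets. Other probe sets of Slc25a15 were higher by up to 1.60-fold. The quantity compared was the difference of the deposited log2 signals, 2/3PH minus 1/3PH, called the log2 ratio. Each gene was read from its brightest probe set by the mean log2 signal of both arrays, and a floor was set at the median of that mean over all probe sets that are not controls, 6.48. All 10 genes reached it, and so did 9514 genes in all. A 2-fold difference was met by 1 of the 10 genes in the lower direction, against 3.68% of all genes above the floor, and by 0 of the 10 in the higher direction, against 6.12%. Among the 1445 genes at least as bright as the dimmest of the 10, these shares were 4.5% and 1.87%. At 1.5-fold, 2 of the 10 genes were lower and 1 was higher, against 12% and 15.8% of all genes above the floor. These shares do not set the 10 genes apart. In tissue RNA of this kind, fewer cells of a type and less RNA per cell cannot be told apart. Their median log2 ratio was -0.09, with 6 below 0 and 4 above, and that of all genes above the floor was 0.03, with 47.1% below 0 and 52.9% above. The genes' median turned positive under quantile normalization (0.11), loess (0.10), hybridisation control scaling (0.15) and poly-A control scaling (0.34). Under the same 4 scalings the median of all genes above the floor was -0.0008, 0.02, 0.27 and 0.47.

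**Figure D1:**
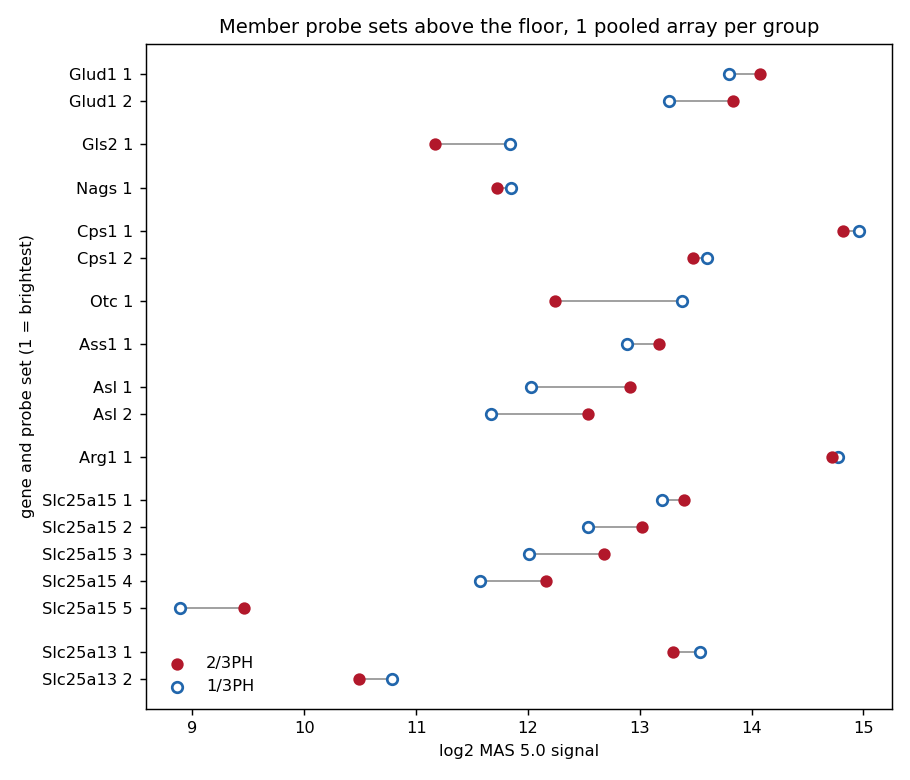
Log2 MAS 5.0 signal (x axis) of the 18 probe sets above the floor of the 10 genes (y axis, numbered by brightness within a gene), with the 2/3PH array as filled red points and the 1/3PH array as open blue points, 1 array of pooled RNA each. The 2/3PH point of Otc lies at 12.24 against 13.38 after 1/3PH, and both Asl rows run the other way, while the points of Cps1 and Arg1 nearly touch.

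The supply of ammonia and glutamate was represented by Glud1 and Gls2. Glud1 encodes mitochondrial glutamate dehydrogenase, which interconverts glutamate and 2-oxoglutarate with release or capture of ammonia. Its brighter probe set had a signal of 17253 after 2/3PH, against 14212 after 1/3PH, a log2 ratio of 0.28, and its other probe set had signals of 14559 after 2/3PH, against 9800.0 after 1/3PH, a log2 ratio of 0.57. Both probe sets were thus higher after 2/3PH, by 1.21-fold and 1.49-fold. Gls2 encodes the liver-type glutaminase, which releases ammonia from glutamine in periportal mitochondria. Its single probe set had a signal of 2296 after 2/3PH, against 3669 after 1/3PH, a log2 ratio of -0.68, and 9.25% of the genes above the floor had a ratio as low or lower. The difference between the log2 ratios of Glud1 and Gls2 was 0.96, so their signals changed relative to each other by 1.94-fold.

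The mitochondrial steps of the cycle did not differ alike. Nags makes N-acetylglutamate, the obligate activator of carbamoyl phosphate synthetase, and its single probe set had signals of 3390 after 2/3PH, against 3685 after 1/3PH, a log2 ratio of -0.12. Cps1, carbamoyl phosphate synthetase, is the entry and rate-limiting enzyme of the cycle. Its brighter probe set had signals of 28925 after 2/3PH, against 31775 after 1/3PH, a log2 ratio of -0.14, and the other had signals of 11383 after 2/3PH, against 12426 after 1/3PH, a log2 ratio of -0.13. The Cps1 probe sets thus gave nearly the same small ratio. The sign of that of the brighter probe set turned under quantile, loess, hybridisation control and poly-A control scaling. Otc encodes ornithine transcarbamylase, which joins carbamoyl phosphate to ornithine to form citrulline. Its single probe set had signals of 4837 after 2/3PH, against 10672 after 1/3PH, a log2 ratio of -1.14, and 258 of the 9514 genes above the floor (2.71%) had a ratio as low or lower. The log2 ratio of Cps1 exceeded that of Otc by 1.01, a 2.01-fold difference between consecutive steps that no array-wide scaling factor alters. Otc was represented by 1 probe set, so no other probe set checks its value.

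The carriers that link mitochondrion and cytosol pointed in different directions. Slc25a15 (ORNT1) exchanges cytosolic ornithine for mitochondrial citrulline and had 6 probe sets, of which 5 were above the floor. Its brightest had signals of 10796 after 2/3PH, against 9372 after 1/3PH, a log2 ratio of 0.20, which was the lowest of the 5. The other 4 had log2 ratios of 0.48, 0.68, 0.59 and 0.57 in order of brightness, so all 5 were higher after 2/3PH and their mean was 0.51. Its sixth probe set had signals of 2.25 after 2/3PH, against 4.37 after 1/3PH, far below the floor signal of 89.2, and carries no ratio. Slc25a13 (citrin) exports mitochondrial aspartate, the donor of the second nitrogen of urea, in exchange for glutamate. Its probe sets had signals of 10052 and 1437 after 2/3PH, against 11874 and 1760 after 1/3PH, log2 ratios of -0.24 and -0.29. Both were lower, and the ratio of the brighter turned positive under poly-A control scaling (0.19).

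Among the cytosolic enzymes, Asl stood out from its neighbours. Ass1, argininosuccinate synthetase, condenses citrulline with aspartate, and its single probe set had signals of 9224 after 2/3PH, against 7582 after 1/3PH, a log2 ratio of 0.28. Asl, argininosuccinate lyase, splits argininosuccinate into arginine and fumarate. Its brighter probe set had signals of 7726 after 2/3PH, against 4180 after 1/3PH, a log2 ratio of 0.89, and the other had signals of 5944 after 2/3PH, against 3263 after 1/3PH, a log2 ratio of 0.87. The 2 probe sets agree closely, but they may not both measure Asl. The annotation gives the brighter one an accession that RefSeq assigns to Hnrnpab, an RNA-binding protein gene, whereas the accession of the other is that of Asl in RefSeq. Such a mismatch was seen in 12 of 2900 named probe sets with a RefSeq mRNA accession in the table. The probe set annotated to Hnrnpab itself had signals of 11295 after 2/3PH, against 4930 after 1/3PH, a log2 ratio of 1.20. The probe set with the Asl accession alone puts Asl at 1.82-fold higher. Arg1, liver arginase, releases urea and regenerates ornithine, and had signals of 26957 after 2/3PH, against 27923 after 1/3PH, a log2 ratio of -0.05. By its brighter probe set, the log2 ratio of Asl exceeded that of Arg1 by 0.94 and that of Ass1 by 0.60. The sign of the Arg1 ratio turned under quantile, loess, hybridisation control and poly-A control scaling.

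**Figure D2:**
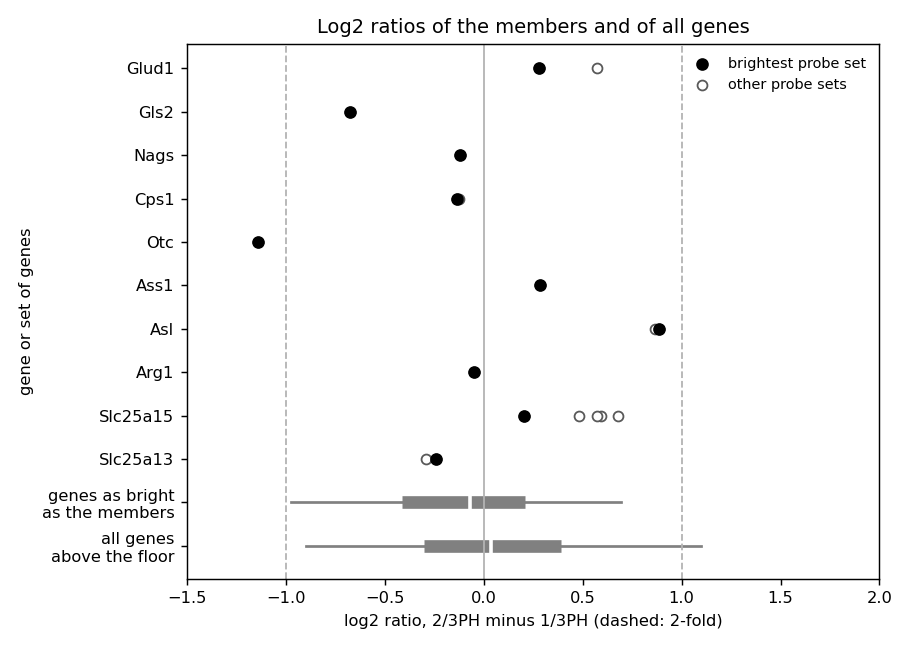
Log2 ratio, 2/3PH minus 1/3PH (x axis), of each probe set above the floor of the 10 genes (y axis), filled for the brightest probe set of a gene and open for the others, with the spread of 1445 genes at least as bright and of all 9514 genes above the floor. Thick bars run from the 25 to the 75 percentile, thin lines from the 5 to the 95 percentile, and white marks are medians. Of the 10 genes, only Otc lies past a dashed 2-fold line and left of both thin lines, which end at -0.90 and -0.97, and Asl lies right of the 0.70 that ends the line of the equally bright genes but inside that of all genes, which ends at 1.10.

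In order of the log2 ratio by the brightest probe set, the genes ran Asl (0.89), Ass1 (0.28), Glud1 (0.28), Slc25a15 (0.20), Arg1 (-0.05), Nags (-0.12), Cps1 (-0.14), Slc25a13 (-0.24), Gls2 (-0.68) and Otc (-1.14). The spread between probe sets of 1 gene gave a yardstick for the gaps in this order. It was taken within the 2 arrays and leaves out animals, pooling and labelling. It is not array error alone, since it also holds any probe set annotated to the wrong gene, as may be so for Asl. Over 85 genes as bright as these and with several probe sets, the SD of a probe set's log2 ratio was 0.21, which gives an SD of 0.30 for the gap between 2 genes. The gaps from Asl to Ass1 (0.60), from Slc25a13 to Gls2 (0.44) and from Gls2 to Otc (0.47) were larger than that SD. The other 6 gaps between neighbours, of 0.003 to 0.25, were smaller, so the order from Ass1 to Slc25a13 is not resolved step by step. A gap larger than the SD is not thereby resolved either. The yardstick leaves out differences between animals and pools, and Gls2 and Otc each have a single probe set. From end to end, the ratio of Asl exceeded that of Otc by 2.03, which is 4.08-fold. The Asl value in this order is that of the brighter probe set, which may not measure Asl, and the other gave 0.87. The 5 genes with more than 1 probe set above the floor had every such probe set on the same side of 0, with a widest range of 0.47, in Slc25a15.

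The sign of 4 of the 10 ratios depended on the scaling of the arrays. On the deposited scale both arrays have the same trimmed mean signal. Spiked control transcripts were brighter on the 1/3PH array, and scaling to them moved every log2 ratio up, by 0.24 with the hybridisation controls and by 0.43 with the poly-A controls. The median of all genes above the floor then became 0.27 and 0.47. Under these scalings Otc stood at -0.91 and -0.71, no longer 2-fold lower, and Asl at 1.12 and 1.32, past 2-fold higher. The shares of all genes at 2-fold moved with it, to 10.3% higher and 2.26% lower with the hybridisation controls and to 16.6% higher and 1.37% lower with the poly-A controls. Over the 6 scalings Otc and Gls2 kept ratios below 0 and Asl, Ass1, Glud1 and Slc25a15 ratios above 0. Cps1, Arg1, Nags and Slc25a13 took both signs.

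**Figure D3:**
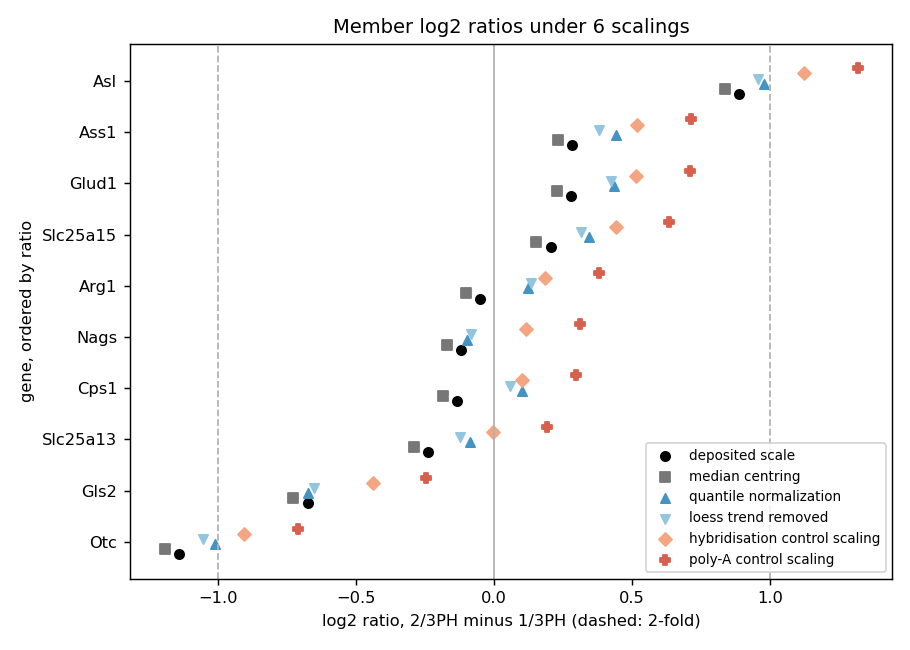
Log2 ratio, 2/3PH minus 1/3PH (x axis), of the 10 genes (y axis, highest ratio at the top) by the brightest probe set under 6 scalings of the same 2 arrays, each a different symbol. The poly-A controls give the highest ratio for every gene, Otc and Gls2 stay left of 0, and Asl, Ass1, Glud1 and Slc25a15 stay right of it.

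Partner enzymes of nitrogen metabolism were also split. Of 18 listed, 16 were measured and 15 reached the floor. At least 2-fold lower were 3 and at least 2-fold higher 1, against 3.68% and 6.12% of all genes above the floor. The median log2 ratio was -0.10, and it was positive under all other scalings but median centring. With hybridisation and poly-A controls it was 0.14 and 0.33, against 0.27 and 0.47 for all genes above the floor. Car5a, the mitochondrial carbonic anhydrase that supplies bicarbonate to Cps1, had signals of 142 after 2/3PH, against 956 after 1/3PH, a log2 ratio of -2.75. Its ratio stayed at -2.32 or lower under all 6 scalings, in contrast to that of Cps1 itself. Car5a was read from a single probe set, whose signal after 2/3PH was not far above the floor signal of 89.2. No other probe set checks its value. Nit2, an omega-amidase of glutamine transamination, had signals of 4397 after 2/3PH, against 9749 after 1/3PH, a log2 ratio of -1.15. Glul, glutamine synthetase, which captures ammonia in pericentral cells, had signals of 3043 after 2/3PH, against 6145 after 1/3PH, a log2 ratio of -1.01, with probe sets from -1.01 to -0.70. The Glul difference was under 2-fold with quantile, loess and both control scalings, and that of Nit2 with both control scalings. Got1, the cytosolic aspartate aminotransferase, went the other way, with signals of 3663 after 2/3PH, against 1810 after 1/3PH, a log2 ratio of 1.02 that was 0.97 with median centring. Its mitochondrial counterpart Got2 stood at -0.10 by the brighter probe set and 0.40 by the other. Oat, which feeds ornithine into glutamate, had a log2 ratio of -0.62. Arg2, the mitochondrial arginase, was far below the floor on both arrays, at signals of 3.47 after 2/3PH, against 4.79 after 1/3PH.

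Enzymes that release ammonia from other amino acids and nucleotides differed in few cases. Of 14 measured, 13 reached the floor. Only 1 of them passed 2-fold in the lower direction and none did in the higher. Few of all genes above the floor did so either, 3.68% and 6.12%, so this does not set the 13 apart. Their median was -0.05, and it was positive under both control scalings, at 0.18 with hybridisation and 0.38 with poly-A controls. The medians of all genes above the floor were then 0.27 and 0.47. Sds, serine dehydratase, was at least 2.60-fold lower, with a signal of 86.1, under the floor, after 2/3PH, against 232 after 1/3PH. With poly-A control scaling its log2 ratio of -1.43 became -0.999, just under 2-fold. In the list of nitrogen transport, 7 of 15 measured genes reached the floor and none of the 7 differed by 2-fold. Against the same shares of all genes, this does not set the 7 apart. Their median was -0.09, again positive under both control scalings, as was that of all genes. Slc38a3 (SNAT3), the glutamine carrier of hepatocytes, had signals of 3082 after 2/3PH, against 5070 after 1/3PH, a log2 ratio of -0.72. Slc7a1 (CAT1), an arginine carrier, had signals of 196 after 2/3PH, against 102 after 1/3PH, a log2 ratio of 0.94. The water and ammonia channel Aqp8 stood at 0.38 and the urea-permeable Aqp9 at -0.26.

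The list of pathways that use carbamoyl phosphate, ornithine, arginine or aspartate had the highest median of these lists. It also holds later steps of pyrimidine and polyamine synthesis, such as Umps, Srm and Sms, which do not themselves act on an intermediate of the cycle. Of 18 listed, 15 reached the floor, of which 3 passed 2-fold in the higher direction and none in the lower. The shares of all genes above the floor were 6.12% and 3.68%. The list's median of 0.17 was above 0 under all 6 scalings. With hybridisation and poly-A controls it was 0.51 and 0.71, against 0.27 and 0.47 for all genes above the floor. Umps, which completes UMP, had signals of 5026 after 2/3PH, against 1816 after 1/3PH, a log2 ratio of 1.47. Spermidine synthase Srm had signals of 2172 after 2/3PH, against 977 after 1/3PH, a log2 ratio of 1.15, and spermine synthase Sms 530 after 2/3PH, against 265 after 1/3PH, a log2 ratio of 1.00 that lay between 0.91 and 0.95 with median, quantile and loess scaling. Odc1, which commits ornithine to polyamines, had a log2 ratio of 0.80, and Cad, which makes its own cytosolic carbamoyl phosphate for pyrimidines, one of 0.63.

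Regulators known to act on urea cycle genes were mostly within 2-fold. Of 21 listed, 19 reached the floor. Beyond 2-fold lay 1 gene on the lower side and none on the higher side. The shares of all genes above the floor were 3.68% and 6.12%, so this does not set the 19 apart. Their median was -0.15, and it turned positive, at 0.08 and 0.28, with hybridisation and poly-A controls. For all genes above the floor, these controls gave medians of 0.27 and 0.47. Klf15, a factor that promotes amino acid breakdown in fasting, had signals of 1543 after 2/3PH, against 3341 after 1/3PH, a log2 ratio of -1.11, or -0.88 and -0.68 under the control scalings. Cebpa, a hepatocyte factor that acts on several cycle genes, had signals of 1341 after 2/3PH, against 2511 after 1/3PH by its brightest probe set, a log2 ratio of -0.91, and its probe sets above the floor ranged from -1.49 to -0.91. Hnf4a, whose product binds the promoters of hepatocyte metabolic genes, had a log2 ratio of -0.35. The glucagon receptor Gcgr stood at -0.77, the glucocorticoid receptor Nr3c1 at -0.59 and the coactivator Ppargc1a at 0.74 by its brightest probe set and down to 0.21 by another.

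**Figure D4:**
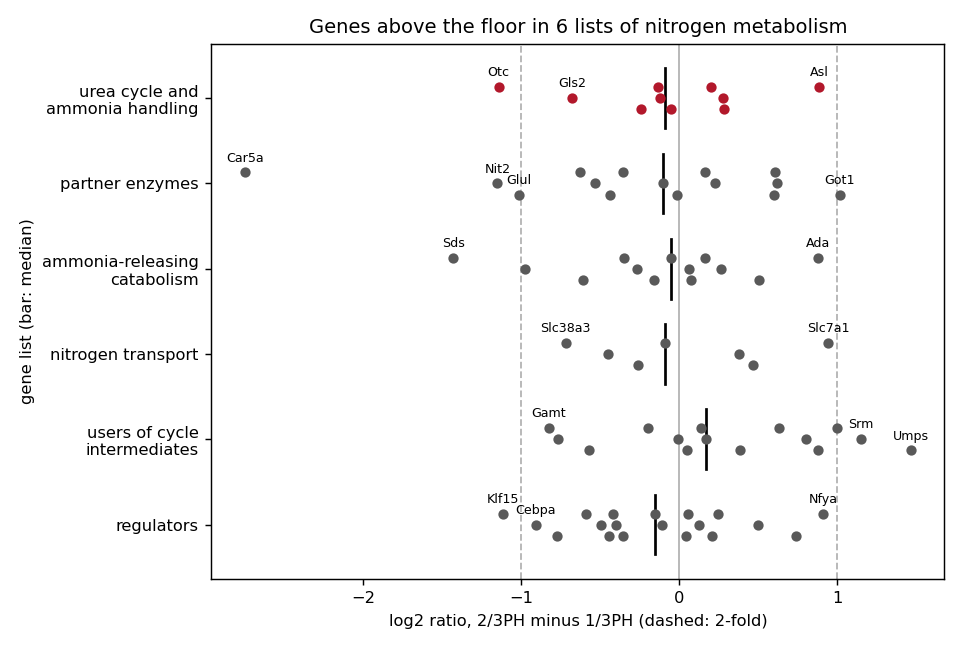
Log2 ratio, 2/3PH minus 1/3PH (x axis), of genes above the floor in 6 lists (y axis), 1 point per gene by its brightest probe set, with the 10 urea cycle and ammonia handling genes in red, list medians as vertical bars and some genes named. Every list has points on both sides of 0. The median of the list labelled users of cycle intermediates, which also holds later steps of pyrimidine and polyamine synthesis, is the highest, at 0.17.

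On the deposited scale, markers of most cell types in the tissue were lower after 2/3PH. All 9 measured hepatocyte markers had log2 ratios below 0, with summed signals of 220969 after 2/3PH, against 256452 after 1/3PH, and a median of -0.22. That median was 0 under quantile normalization, -0.01 under loess and positive under both control scalings. Alb, albumin, was at -0.23. The 8 measured periportal markers, which include Gls2 and Arg1, were all below 0, with a median of -0.45 and summed signals of 66804 after 2/3PH, against 77354 after 1/3PH. Of 7 pericentral markers above the floor, 6 were below 0, with a median of -0.86, and the 9 measured had summed signals of 39168 after 2/3PH, against 82439 after 1/3PH. The Wnt target Axin2 was the exception, at least 2.69-fold higher. Of the other cell types, all 11 macrophage markers, all 9 endothelial markers and all 6 erythroid and neutrophil markers were below 0, with medians of -0.50, -0.66 and -0.98, and 7 of 9 stellate cell markers were, with a median of -0.73. These medians were below 0 under all 6 scalings. Summed signals were 14967 after 2/3PH, against 22316 after 1/3PH for macrophages, 9583 after 2/3PH and 14876 after 1/3PH for endothelium, and 8646 after 2/3PH and 14592 after 1/3PH for stellate cells. Erythroid and neutrophil markers summed to 14745 after 2/3PH and 30273 after 1/3PH. Of 6 measured cholangiocyte markers 3 reached the floor, and 2 of these, Krt19 (0.53) and Epcam (0.23), had ratios above 0, with Spp1 at -0.65 and a median of 0.23 that was above 0 under all 6 scalings. The 6 cholangiocyte markers summed to 1383 after 2/3PH, against 1368 after 1/3PH, with Krt7 near 0 at a lowest signal of 7.06. The part of any of these in the ratios of the urea cycle genes was not tested. The log2 difference between the 3' and 5' control probe sets was 0.36 after 2/3PH, against 0.66 after 1/3PH for Gapdh, and 2.91 after 2/3PH, against 2.74 after 1/3PH for beta-actin.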

How the data were processed

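Liver RNA of 2 pools was measured on 2 rat Affymetrix arrays. Per the labels' protocols, RNA was labelled with a 3' IVT Express kit, arrays were read on a Scanner 3000 with Command Console 3.1, and signals were computed with MAS 5.0 in GeneSpring 11.0. The authors deposited log2 signals of 31099 probe sets. The log base was checked on the values: as powers of 2, the mean without the top and bottom 2% was 500.2 after 2/3PH, against 500.3 after 1/3PH. No scaling target or detection call is given in the sources used here. Symbols came from the platform annotation, updated through Entrez identifiers to RefSeq GRCr8. Of 31042 probe sets that are not controls, 20826 had 1 symbol, 436 several and 9780 none.

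The log2 ratio is the 2/3PH minus the 1/3PH value. A fold against a signal under the floor is given as "at least", with the floor in its place. The 10 genes, the 14 lists with 176 entries (15 unmatched) and the naming rule (all 10 genes, list members at 2-fold, and preset partners and regulators) were chosen with earlier results of these data known. Further values were added for context after they were seen. The calculation was checked on simulated arrays of 9514 genes, with an SD of 0.25 as noise, and recovered 50 of 50 genes at a log2 ratio of 1.5. That ratio is larger than any of the 10 genes' differences. The noise is below the SD of 0.31 between probe sets of genes above the floor. The simulation thus checks the arithmetic only. Alternatives were 5 other scalings, 2 other floors, 64 added units, the mean over probe sets, removal of suffixed probe sets and 2 other fold limits. Calculations used Python 3.11.15, pandas 2.3.3 and statsmodels 0.14.6. The number of arrays limits the precision.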

Additional observations from a re-analysis of the deposited data

How the results depend on the processing

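The count of 1 urea cycle gene at least 2-fold lower and 0 at least 2-fold higher held under median centring, quantile normalization, loess, no floor, the 75th percentile floor, 64 added units, the mean over probe sets and removal of suffixed probe sets. With hybridisation control scaling the counts were 0 lower and 1 higher and the median log2 ratio 0.15, and with poly-A control scaling 0 lower and 1 higher and the median 0.34. The medians of all genes above the floor were then 0.27 and 0.47. The 1.5-fold limit gave 2 lower and 1 higher, and the 3-fold limit 0 in either direction. Of 100 single gene values under the alternatives, 78 moved by less than the SD between probe sets of 1 gene and 22 by more, 20 of these under the control scalings. The others were Cps1 under quantile normalization (0.10) and Slc25a15 with the mean over probe sets (0.51). Many of these outcomes were fixed in advance. A changed floor cannot alter a gene's ratio, nor can the mean over probe sets where a gene has 1. Each control scaling shifts every ratio by the same amount, 0.24 or 0.43, against an SD of 0.21. The tally is therefore no measure of how stable the ratios are. No paired analysis was possible because each group has 1 array. With 1 pool per group, differences between animals and between groups cannot be told apart.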

Other observations

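Transcripts of both enzymes of creatine synthesis, a further use of arginine in the body, had log2 ratios below 0, each within 2-fold. Gatm, which makes guanidinoacetate from arginine, had signals of 428 after 2/3PH, against 727 after 1/3PH, a log2 ratio of -0.77. Gamt, which methylates it to creatine in the liver, had signals of 4914 after 2/3PH, against 8710 after 1/3PH, a log2 ratio of -0.83. In the purine branch, Adsl, which releases fumarate by a lyase reaction of the same superfamily as Asl, had signals of 1561 after 2/3PH, against 848 after 1/3PH, a log2 ratio of 0.88, and adenosine deaminase Ada 342 after 2/3PH, against 186 after 1/3PH, also 0.88.

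Several carriers and channels of nitrogen metabolism stayed below the floor signal of 89.2 on both arrays, so no ratio is read from them. Rhcg, an ammonia channel, had signals of 41.2 after 2/3PH, against 5.60 after 1/3PH. The arginine carrier Slc7a2 had signals of 79.7 after 2/3PH, against 27.4 after 1/3PH. The urea carrier Slc14a1 had signals of 21.2 after 2/3PH, against 33.3 after 1/3PH.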
